A study of Schmidtea mediterranea with 35 samples.

Results

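A set of 82 transcripts, of 25462 measured, was already higher at day 6 of RNAi against either zfp1 or p53 than under the control RNAi in sorted stem cells of the planarian Schmidtea mediterranea. The members were chosen from the measured values themselves. L was log2 of a group's median RPKM (reads per kilobase of transcript, scaled by the authors for library size) plus 1, and D was L of a knockdown minus L of the control on the same day. A member reached a group median of at least 3 RPKM in at least 1 of the 9 groups, which 11932 transcripts did, and had a D of 0.6 or higher at day 6 for both knockdowns. Its D at day 13 was above -0.4 for both, and at least 1 of its 4 D values at days 9 and 13 was below 1. Every comparison with the control therefore describes the choice and was not tested, and the question followed here is which of the early rises faded. The rule did not use the comparison of zfp1 RNAi with p53 RNAi itself, but it bounded the levels of the same knockdown libraries, so counts and medians over the members in that comparison are not free of the choice either. Its p-values are those of single transcripts in a fit over all transcripts.

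The groups were X1 cells of the CIW4 clonal line after RNAi against zfp1, after RNAi against p53, and after RNAi against unc22, the non-targeting control, each at days 6, 9 and 13. All animals, controls included, ate liver paste with bacteria making double-stranded RNA in 3 feedings spaced 3 days apart. Polyadenylated RNA of the sorted cells was sequenced in 4 libraries per group, except for unc22 RNAi at day 13, which has 3. Libraries are numbered as the labels number them, which gives replicates 1, 2, 4 and 5 for zfp1 RNAi and 1, 4 and 5 for unc22 RNAi at day 13. The animals were of 1 clonal line, and the labels do not say if the replicates are separate cultures of animals, so errors and p-values cover only the variation among these libraries, part or all of which can be technical.

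X1 cells are the dividing, radiation-sensitive fraction that Hoechst staining and flow cytometry separate from a dissociated planarian, and they consist mostly of neoblasts, the stem cells from which all planarian tissues renew. A subclass of neoblasts gives rise to the epidermis and depends on the zinc finger protein zfp-1, and planarian p53 is expressed in that subclass and acts in stem cell maintenance and differentiation. unc-22 is a nematode muscle gene that is used as a control because it has no planarian target. The transcript identifiers came without gene names, so no member is given a function here, and neither the knockdown of zfp1 and p53 nor the markers of the sorted cells were checked.

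The recovered depth was 4391559 to 26115474 reads per library. Replicate 1 of zfp1 RNAi at day 6, replicate 5 of zfp1 RNAi at day 13 and replicate 5 of unc22 RNAi at day 13 stood apart, with 4945, 5021 and 4546 transcripts at 0 and 25.2%, 32.3% and 27.5% of their reads on 1 transcript. They are kept, and values without them are given where they matter. In sorted bulk RNA, fewer cells of a type and less RNA per cell cannot be told apart.

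At day 6, where the rule asked for a rise in both knockdowns, the median member stood at about the same level after either, and at day 13 it stood higher after p53 RNAi. The median member had 8.18, 6.13, 6.37 and 5.33 RPKM in the libraries of zfp1 RNAi at day 6, 6.97, 6.11, 6.46 and 6.70 RPKM under p53 RNAi, and 3.67, 2.97, 3.40 and 2.72 RPKM under unc22 RNAi. No control library reached a knockdown library. At day 9 the median member averaged 7.34 ± 0.526 RPKM under zfp1 RNAi, 6.81 ± 1.01 RPKM under p53 RNAi and 3.35 ± 0.266 RPKM under unc22 RNAi (SD, n = 4 each). At day 13 it averaged 6.10 ± 0.685 RPKM under zfp1 RNAi (n = 4), 8.23 ± 0.497 RPKM under p53 RNAi (n = 4) and 3.17 ± 0.251 RPKM under unc22 RNAi (SD, n = 3). By then the highest zfp1 library, at 6.92 RPKM, lay below the lowest p53 library, at 7.51 RPKM. The control's libraries stayed between 2.72 and 3.74 RPKM across the 3 days.

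**Figure D1:**
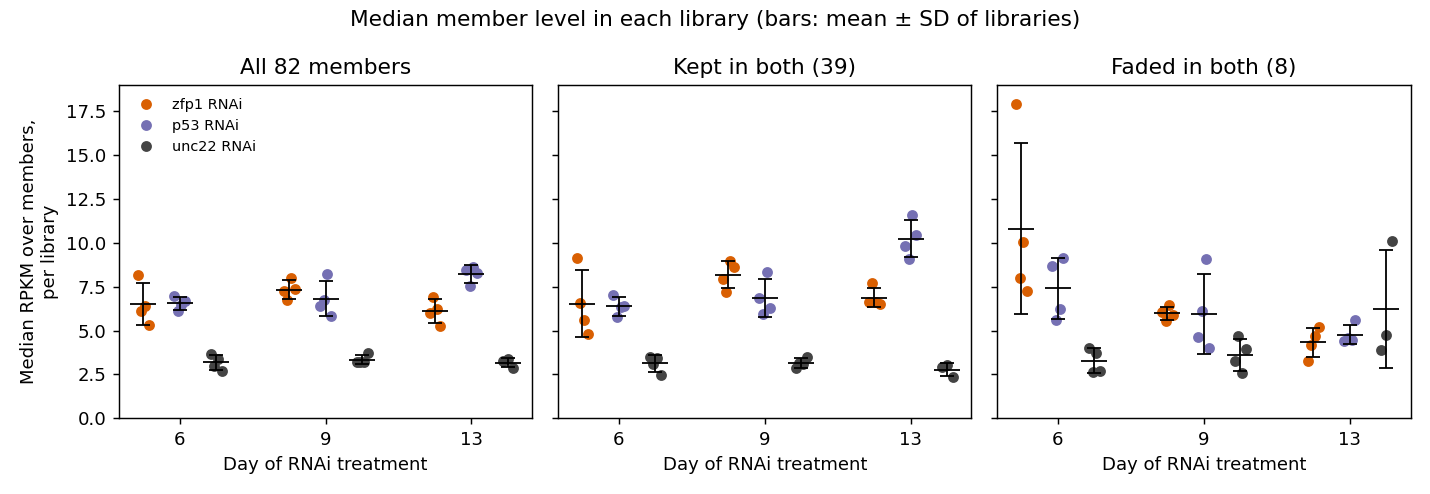
Median RPKM (vertical axis) over all 82 members, over the 39 kept in both knockdowns and over the 8 faded in both, for every library (points) by day and RNAi, with mean ± SD of the libraries. The medians of all members stay above the unc22 RNAi libraries on all 3 days, and those of the 8 faded members meet them at day 13.

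Fewer members were still raised at day 13 after zfp1 RNAi than after p53 RNAi. D was 0.6 or higher for 62 of 82 members at day 9 and 44 at day 13 after zfp1 RNAi, and for 58 at day 9 and 58 at day 13 after p53 RNAi. Among all transcripts of 3 RPKM or more it was that high for 3.75% and 4.83% after zfp1 RNAi and for 4.55% and 9.6% after p53 RNAi, so at day 13 more transcripts in general passed this limit after p53 RNAi. It was below 0.3 at day 13 for 18 members after zfp1 RNAi and for 13 after p53 RNAi, and below 0 for 5 and 3. The median D after zfp1 RNAi was 0.80 at day 6, 0.87 at day 9 and 0.69 at day 13, and after p53 RNAi it was 0.77, 0.79 and 0.97. Over all 19206 tested transcripts the median D lay between -0.02 and 0.01 on every day. Over the 11932 transcripts of 3 RPKM or more it was -0.10 for p53 RNAi at day 13 and otherwise lay between -0.03 and 0.01. The largest of a member's 3 values stood at day 6 for 35 members, at day 9 for 32 and at day 13 for 15 after zfp1 RNAi, and for 24, 16 and 42 after p53 RNAi. D was smaller at day 13 than at day 6 for both knockdowns in 29 members, for zfp1 RNAi alone in 21, for p53 RNAi alone in 7, and for neither in 25.

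**Figure D2:**
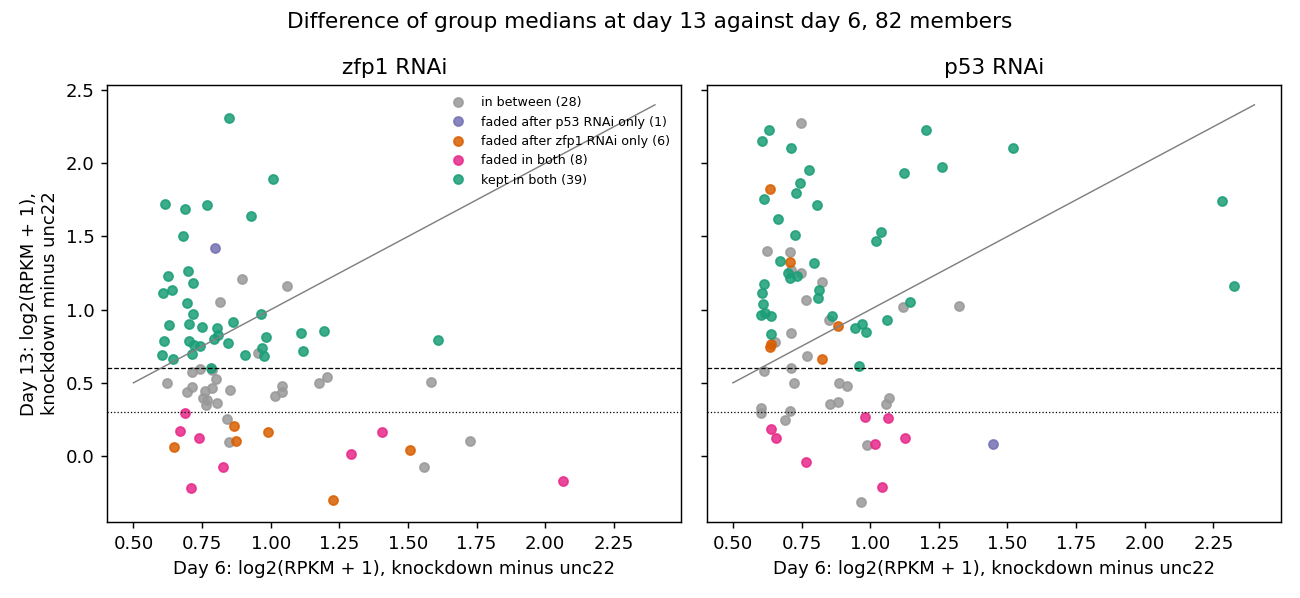
D at day 13 (vertical axis) against D at day 6 (horizontal axis), both on the log2(RPKM + 1) scale, for zfp1 RNAi and p53 RNAi; each point is a member, coloured by class. The dashed line is 0.6, the dotted line 0.3 and the diagonal marks equal values; 50 members lie below the diagonal after zfp1 RNAi and 36 after p53 RNAi.

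Members were sorted by their day 13 D. The rise was kept in both knockdowns, with D of 0.6 or higher, by 39 members. It had faded in both, with D below 0.3, in 8. It had faded after zfp1 RNAi and was kept after p53 RNAi in 6, and the reverse held for 1. The other 28 lay in between. Single day 13 libraries shift these classes. Of the 39, 33 were still kept without replicate 5 of unc22 RNAi and 30 without replicate 2 of zfp1 RNAi at day 13. Of the 28, 19 stayed in between without replicate 5 and 12 without replicate 1 of unc22 RNAi at day 13. D stayed at 0.6 or higher on all 3 days in both knockdowns in 33 members, and all 6 values were above 0 in 69.

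The 8 faded members had a median D of 0.78 at day 6, 0.68 at day 9 and 0.07 at day 13 after zfp1 RNAi, and of 1.00, 0.44 and 0.12 after p53 RNAi. SMED30002500, the member with the largest D at day 6 after zfp1 RNAi, showed the clearest fading. At day 6 it had 29.8, 17.7, 13.6 and 16.3 RPKM in the zfp1 libraries, 8.68, 8.51, 7.10 and 8.28 RPKM in the p53 libraries and 3.92, 3.61, 2.75 and 3.00 RPKM in the unc22 libraries. The 3 groups did not overlap, with zfp1 RNAi highest. At day 9 its median was 5.12 RPKM under zfp1 RNAi, 4.37 RPKM under p53 RNAi and 2.58 RPKM under unc22 RNAi. At day 13 it had 2.79, 3.03, 3.46 and 4.92 RPKM under zfp1 RNAi, 4.68, 3.79, 3.78 and 4.63 RPKM under p53 RNAi and 3.75, 3.78 and 5.03 RPKM under unc22 RNAi. All 3 groups then shared 1 range, so a D of 2.07 at day 6 for zfp1 RNAi had become -0.17 at day 13, and one of 1.13 for p53 RNAi had become 0.12.

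SMED30023953 faded at different times in the knockdowns. At day 6 it had 22.3, 17.3, 17.3 and 18.0 RPKM under zfp1 RNAi, 20.6, 19.03, 20.5 and 16.0 RPKM under p53 RNAi and 13.0, 8.39, 10.7 and 8.33 RPKM under unc22 RNAi. At day 9 it had 9.49, 8.07, 12.5 and 13.3 RPKM under zfp1 RNAi, 20.0, 17.3, 20.0 and 27.0 RPKM under p53 RNAi and 7.94, 10.4, 12.9 and 12.6 RPKM under unc22 RNAi. On day 9, 3 of the 4 zfp1 libraries lay in the control's range and the fourth just above it, while the p53 libraries were all above both. The values of day 13 were 8.16, 10.2, 10.5 and 18.1 RPKM under zfp1 RNAi, 11.03, 15.002, 13.7 and 13.1 RPKM under p53 RNAi and 10.8, 11.03 and 10.98 RPKM under unc22 RNAi. The zfp1 libraries then lay on both sides of the control, and the p53 libraries lay from the control's level upward.

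SMED30017470 fell back after day 9 under p53 RNAi, with a D of 1.044, 1.075 and -0.211 at days 6, 9 and 13. Under zfp1 RNAi its D was already smaller at day 9, at 1.404, 0.724 and 0.166. Its day 6 values were 29.0, 12.6, 17.8 and 5.23 RPKM under zfp1 RNAi, 10.9, 9.54, 12.3 and 13.1 RPKM under p53 RNAi and 4.14, 5.54, 4.71 and 7.32 RPKM under unc22 RNAi, so that 1 zfp1 library lay within the control's range. Its median at day 9 was 11.04 RPKM under zfp1 RNAi, 14.4 RPKM under p53 RNAi and 6.29 RPKM under unc22 RNAi. By day 13 it was at 6.01, 4.72, 7.18 and 8.64 RPKM under zfp1 RNAi, 4.15, 6.85, 5.17 and 4.53 RPKM under p53 RNAi and 4.95, 5.77 and 13.7 RPKM under unc22 RNAi. The 13.7 RPKM came from replicate 5, and without it the other control libraries still lay inside the knockdowns' range.

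SMED30014365 was weak throughout, at 0, 3.01, 5.71 and 9.23 RPKM under zfp1 RNAi, 2.70, 2.57, 1.46 and 2.33 RPKM under p53 RNAi and 1.95, 0.952, 1.27 and 1.11 RPKM under unc22 RNAi at day 6. The library at 0 was replicate 1 of zfp1 RNAi. From day 9 its groups overlapped, with medians of 1.94, 2.27 and 1.72 RPKM for zfp1, p53 and unc22 RNAi at day 9 and 1.84, 2.06 and 1.82 RPKM at day 13.

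The other 4 faded members are named although the rule for naming left them out, a choice made after their values were seen. SMED30033690 was the most abundant of them. Its day 13 values were 20.4, 24.7, 20.7 and 23.0 RPKM under zfp1 RNAi, 19.5, 20.7, 17.4 and 26.2 RPKM under p53 RNAi and 17.6, 16.8 and 34.0 RPKM under unc22 RNAi. Here the control median was the 17.6 RPKM of replicate 1, and all zfp1 libraries lay above both of the control's lower libraries. SMED30004922 and SMED30016244 had control values of 12.8 and 9.21 RPKM in the same replicate 5 at day 13, against 2.92 and 5.67 RPKM and 3.43 and 2.31 RPKM in the other control libraries. SMED30011626 had 2.26, 2.78, 1.22 and 0 RPKM under zfp1 RNAi, 1.17, 2.71, 1.39 and 1.503 RPKM under p53 RNAi and 1.12, 1.52 and 4.62 RPKM under unc22 RNAi. Without replicate 5 of the control, 5 of the 8 members still met the limit of 0.3 in both knockdowns. SMED30004922, SMED30016244 and SMED30033690 did not. That count concerns day 13 only. At day 6, D for zfp1 RNAi depended on replicate 1 of zfp1 RNAi in some of the 8. Without that library it was -0.004 for SMED30011626, 0.168 for SMED30016244 and 0.281 for SMED30004922. It lay between 0.684 and 2.006 in the other faded members. The lower values were already below 0.3, so these members had no clear zfp1 rise to fade without that library. SMED30011626 is among the 5.

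**Figure D3:**
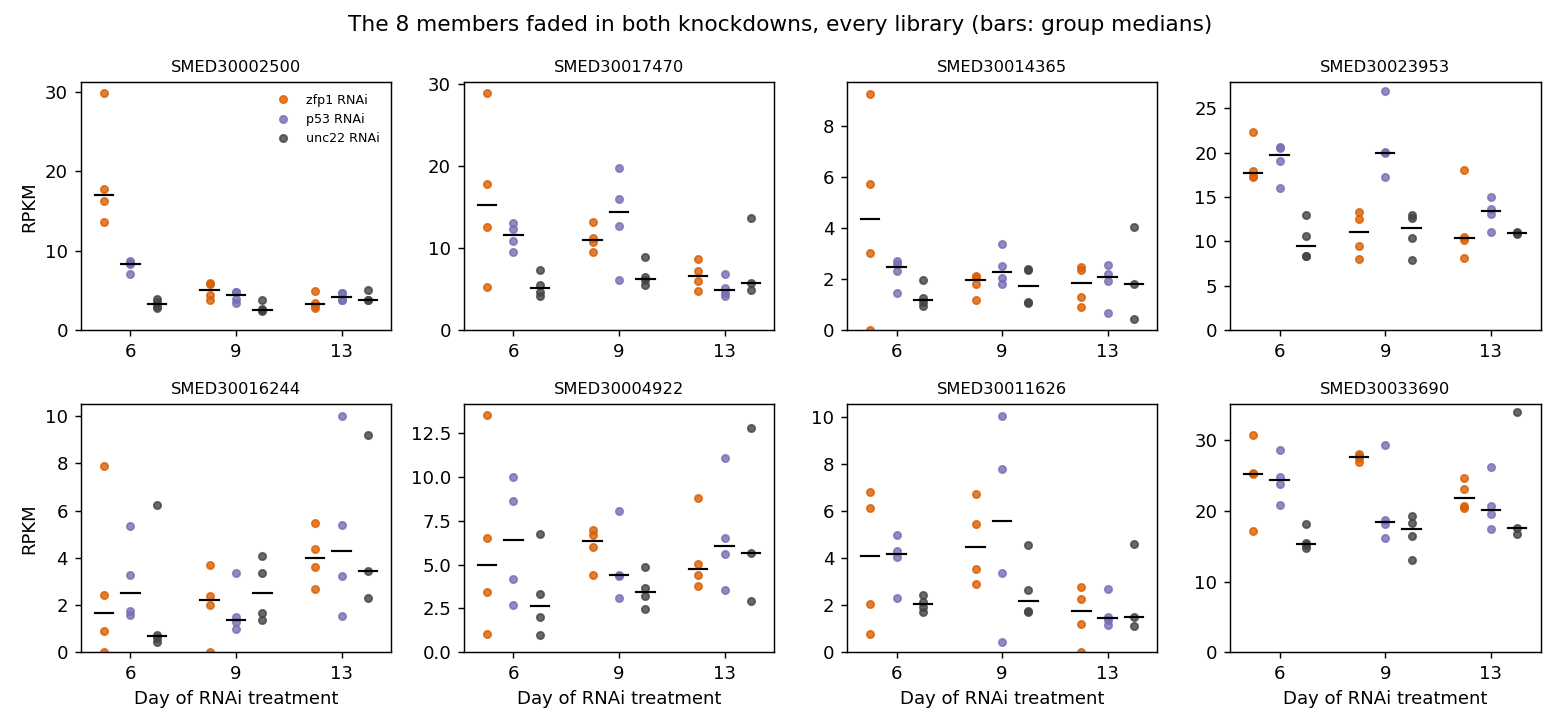
RPKM (vertical axes, each from 0) of the 8 members that faded in both knockdowns, in every library by day and RNAi; bars are group medians. SMED30002500 has non-overlapping groups at day 6 and 1 shared range at day 13, and several panels have a single high control point at day 13, which is replicate 5.

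In 6 members the rise faded after zfp1 RNAi and was kept after p53 RNAi. Their median D for the successive days was 0.93, 0.48 and 0.08 after zfp1 RNAi and 0.67, 0.50 and 0.83 after p53 RNAi. SMED30032800, a weak transcript of 3366 bases, gave the cleanest case. At day 6 it had 2.39, 3.26, 3.39 and 3.65 RPKM under zfp1 RNAi, 1.75, 1.85, 1.14 and 1.64 RPKM under p53 RNAi and 0.489, 0.804, 0.556 and 0.485 RPKM under unc22 RNAi. On day 13 it had 0.424, 0.667, 0.616 and 0.356 RPKM under zfp1 RNAi, 0.921, 2.07, 1.44 and 1.24 RPKM under p53 RNAi and 0.527, 0.478 and 0.171 RPKM under unc22 RNAi. The order of the knockdowns had turned round between the days, with zfp1 RNAi above p53 RNAi at day 6 and below it at day 13 without overlap on either day.

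SMED30011012 had 11.4, 16.1, 8.71 and 11.2 RPKM under zfp1 RNAi, 34.5, 39.7, 41.8 and 30.6 RPKM under p53 RNAi and 24.5, 14.2 and 6.54 RPKM under unc22 RNAi at day 13. All p53 libraries lay above all others, but the control libraries ranged so widely that the zfp1 libraries lay within them. At day 6 its medians were 19.8 RPKM under zfp1 RNAi, 13.5 RPKM under p53 RNAi and 7.88 RPKM under unc22 RNAi.

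SMED30016942 kept its rise after zfp1 RNAi to day 9 and lost it by day 13. Its medians after zfp1 RNAi were 10.7 RPKM at day 6, 15.04 RPKM at day 9 and 5.98 RPKM at day 13, after p53 RNAi they were 10.8, 9.997 and 11.1 RPKM, and after unc22 RNAi 5.38, 7.33 and 5.52 RPKM. The p53 level thus changed little across the days while the zfp1 level passed above it and then below it. SMED30000773 rose less clearly, at medians for days 6, 9 and 13 of 2.69, 2.02 and 2.02 RPKM under zfp1 RNAi, 1.89, 1.79 and 3.58 RPKM under p53 RNAi and 0.855, 1.09 and 1.69 RPKM under unc22 RNAi. Its smaller D at day 13 went with a higher control as well as a lower zfp1 level.

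SMED30021433 was the single member that faded after p53 RNAi and was kept after zfp1 RNAi. It varied more between libraries of a group than between groups. At day 6 it had 119, 13.2, 7.23 and 52.8 RPKM under zfp1 RNAi, 39.3, 9.28, 76.0 and 65.7 RPKM under p53 RNAi and 66.5, 17.4, 19.7 and 16.7 RPKM under unc22 RNAi. At day 13 it had 66.9, 59.5, 26.5 and 123 RPKM under zfp1 RNAi, 23.3, 25.4, 22.0 and 65.7 RPKM under p53 RNAi and 72.2, 23.0 and 19.8 RPKM under unc22 RNAi. The groups overlapped on both days, and without replicate 1 of zfp1 RNAi at day 6 its day 6 D for zfp1 RNAi was -0.46. Leaving out replicate 4 of that group instead leaves the same median of 13.2 RPKM. SMED30021433 thus owes its place among the members to both of these high libraries together. Its day 13 D for p53 RNAi was 0.08 with all libraries and -0.94 without replicate 5 of unc22 RNAi.

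The 39 members that kept their rise had a median D of 0.75, 1.07 and 0.87 at days 6, 9 and 13 after zfp1 RNAi and of 0.78, 0.84 and 1.25 after p53 RNAi. SMED30035336, of 4995 bases, was the steadiest of the abundant ones. At day 9 it had 60.4, 63.1, 61.7 and 62.1 RPKM under zfp1 RNAi, 53.9, 71.9, 62.4 and 68.9 RPKM under p53 RNAi and 34.4, 36.2, 34.8 and 35.4 RPKM under unc22 RNAi. The day 13 values were 54.0, 53.5, 45.9 and 30.6 RPKM under zfp1 RNAi, 60.1, 61.2, 65.3 and 56.3 RPKM under p53 RNAi and 30.3, 29.0 and 16.2 RPKM under unc22 RNAi. The lowest value of the zfp1 group and of the control at day 13 was in the replicate 5 library of each, and replicate 1 of zfp1 RNAi at day 6 read 9.16 RPKM beside 50.8 to 61.3 RPKM in the other 3.

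SMED30017309, of 3631 bases, went on to a higher level after p53 RNAi. It had 6.63, 7.02, 6.65 and 5.40 RPKM under zfp1 RNAi, 11.7, 12.9, 13.5 and 15.5 RPKM under p53 RNAi and 2.90, 3.08 and 1.74 RPKM under unc22 RNAi at day 13. Its day 6 medians were 7.28, 6.11 and 3.24 RPKM for zfp1, p53 and unc22 RNAi. The day 9 medians were 10.5, 9.29 and 3.44 RPKM in the same order. The zfp1 level was thus higher at day 9 and back near its day 6 level at day 13. The p53 level was higher at day 9 and higher again at day 13. SMED30005609 had 6.46, 6.48, 7.86 and 9.61 RPKM under zfp1 RNAi, 14.6, 17.2, 16.4 and 24.96 RPKM under p53 RNAi and 2.97, 3.60 and 7.98 RPKM under unc22 RNAi at day 13. Both knockdowns and the control were separate there except for the control's replicate 5, which lay among the zfp1 libraries.

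Another 4 kept members were chosen by the naming rule for their large day 6 D, and these were unsteady between libraries. SMED30007813 had 4.16, 3.40, 4.61 and 0.532 RPKM under zfp1 RNAi, 22.0, 2.94, 3.72 and 19.8 RPKM under p53 RNAi and 1.31, 1.15, 11.8 and 1.79 RPKM under unc22 RNAi at day 6. SMED30019357 had 2.72, 1.55, 2.68 and 0.464 RPKM under zfp1 RNAi, 11.9, 0.755, 1.195 and 18.3 RPKM under p53 RNAi and 0.344, 0.447, 12.3 and 0.649 RPKM under unc22 RNAi. These 2 transcripts were high and low in the same libraries, at replicates 1 and 4 of p53 RNAi and replicate 3 of the control. After removal of the group means their log2 levels correlated at 0.87 over the 35 libraries, and with SMED30028565 and SMED30004922 the pairwise values lay between 0.70 and 0.87, against a median of 0.05 over all 3321 pairs of members. That set was picked after its values were seen, the pairs share libraries and depth, and the correlations are descriptions. SMED30028565 was higher at day 13, with 22.3, 54.5, 35.9 and 36.5 RPKM under zfp1 RNAi, 46.6, 36.4, 70.3 and 54.1 RPKM under p53 RNAi and 10.9, 18.3 and 10.2 RPKM under unc22 RNAi, and its control libraries lay below all knockdown libraries. SMED30023315 reached 26.0 RPKM in the control's replicate 5 at day 13, beside 4.19 and 5.04 RPKM in the other control libraries, 7.36 to 11.3 RPKM under zfp1 RNAi and 10.6 to 16.5 RPKM under p53 RNAi.

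Of the 28 members in between, SMED30016901 was the most abundant named one and held its rise after zfp1 RNAi while that after p53 RNAi shrank. It had 49.1, 43.0, 40.3 and 68.3 RPKM under zfp1 RNAi, 41.2, 44.2, 37.0 and 42.1 RPKM under p53 RNAi and 24.2, 22.0, 21.2 and 20.7 RPKM under unc22 RNAi at day 6. At day 13 it had 57.8, 55.5, 52.8 and 57.8 RPKM under zfp1 RNAi, 36.1, 40.2, 34.0 and 29.4 RPKM under p53 RNAi and 26.6, 24.8 and 17.0 RPKM under unc22 RNAi. The 3 groups were in that order with no overlap at day 13. D at days 6, 9 and 13 was 1.06, 0.98 and 1.16 for zfp1 RNAi and 0.92, 0.69 and 0.48 for p53 RNAi.

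SMED30025252 did the opposite. At day 6 it had 2.48, 2.05, 2.56 and 2.14 RPKM under zfp1 RNAi, 2.32, 2.09, 2.25 and 2.12 RPKM under p53 RNAi and 1.59, 0.810, 0.983 and 0.771 RPKM under unc22 RNAi. At day 13 it had 1.32, 1.62, 1.15 and 0.989 RPKM under zfp1 RNAi, 6.53, 7.51, 7.35 and 8.33 RPKM under p53 RNAi and 1.09, 0.717 and 0.739 RPKM under unc22 RNAi. The knockdowns were alike at day 6, and by day 13 the zfp1 libraries had come down to the edge of the control's range while the p53 libraries stood far above both.

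SMED30010467 and SMED30019948, also in between, were below 0.3 at day 13 after zfp1 RNAi, with a D of -0.08 and 0.10. SMED30010467 had median levels for the successive days of 4.56, 4.33 and 1.04 RPKM under zfp1 RNAi, 2.12, 2.51 and 2.03 RPKM under p53 RNAi and 0.889, 0.888 and 1.15 RPKM under unc22 RNAi. SMED30019948 had 7.42, 4.597 and 2.48 RPKM under zfp1 RNAi, 4.35, 3.69 and 3.27 RPKM under p53 RNAi and 1.55, 0.963 and 2.25 RPKM under unc22 RNAi. By these medians both were well above the control after zfp1 RNAi through day 9 and no longer at day 13. The libraries of SMED30019948 overlapped at day 6, with 14.1, 4.70, 10.1 and 0.857 RPKM under zfp1 RNAi. Under unc22 RNAi it had 4.23, 2.27, 0.826 and 0.480 RPKM on that day. SMED30028059 had its smallest zfp1 value on day 9, with D values for days 6, 9 and 13 of 1.58, 0.03 and 0.51 for zfp1 RNAi and of 0.85, 0.54 and 0.93 for p53 RNAi. SMED30008464 had a lower level in all 3 groups at day 13, at medians of 1.36 RPKM under zfp1 RNAi, 2.62 RPKM under p53 RNAi and 0.783 RPKM under unc22 RNAi, against 4.81, 6.18 and 1.87 RPKM at day 6.

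A D that shrinks can go with a lower knockdown level or with a higher control level, and in the faded members both were seen. Between days 6 and 13 the level of the 8 faded members changed by a median of -0.80 after zfp1 RNAi and of -0.40 after p53 RNAi on the log2(RPKM + 1) scale, lower in 7 of 8 for each, while that after unc22 RNAi changed by 0.19 and was higher in 7 of 8. In the 6 members that faded after zfp1 RNAi alone the changes were -0.75 after zfp1 RNAi, lower in 6 of 6, 0.46 after p53 RNAi, higher in 5 of 6, and 0.09 after unc22 RNAi. By these medians the knockdown level moved further than the control level did, but not in every member. SMED30004922 changed by -0.07 after zfp1 RNAi, -0.06 after p53 RNAi and 0.87 after unc22 RNAi, and in SMED30016244 all 3 were higher, by 0.91 after zfp1 RNAi, 0.60 after p53 RNAi and 1.40 after unc22 RNAi. The control also moved further than p53 RNAi in SMED30014365, where p53 RNAi changed by -0.17 and the control by 0.37, and further than zfp1 RNAi in SMED30000773, where zfp1 RNAi changed by -0.29 and the control by 0.54, and slightly in SMED30011012, where they changed by -0.76 and 0.77. The 39 kept members changed by 0.16 after zfp1 RNAi, 0.39 after p53 RNAi and -0.13 after unc22 RNAi, with the control lower at day 13 in 28 of 39. Over all 82 members the changes were -0.21, 0.13 and -0.08. For SMED30002500 the limma estimate of the change was -2.12 ± 0.18 after zfp1 RNAi, -0.81 ± 0.18 after p53 RNAi and 0.26 ± 0.20 after unc22 RNAi (SE). These day changes enter the classes and so carry no test.

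**Figure D4:**
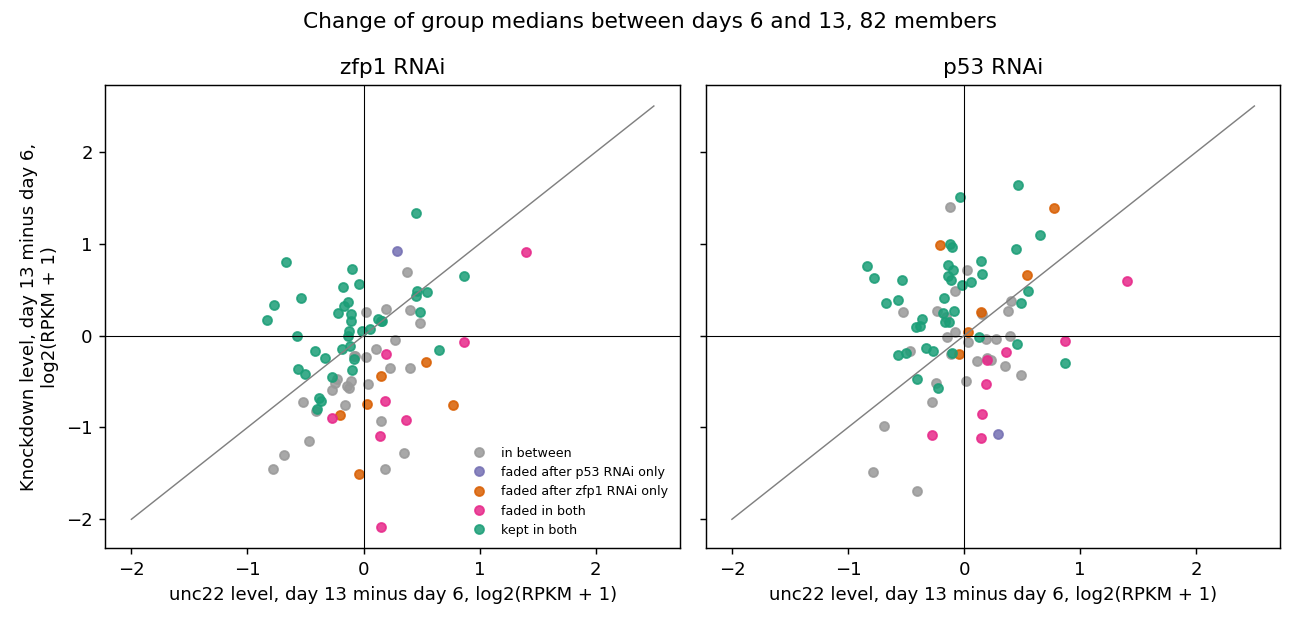
Change of a member's group median from day 6 to day 13 on the log2(RPKM + 1) scale, after a knockdown (vertical axis) against after unc22 RNAi (horizontal axis), for zfp1 RNAi and p53 RNAi; points are coloured by class and the diagonal marks equal changes. Most faded members lie below the diagonal and below 0 in both panels, and most kept members lie above 0 after p53 RNAi.

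For description only, limma with Benjamini-Hochberg adjustment (adjusted p under 0.05) called 23 members higher at day 6, 39 at day 9 and 20 at day 13 after zfp1 RNAi than after unc22 RNAi, where 0.422%, 2.16% and 2.31% of the 19206 tested transcripts were called higher and 0.88%, 1.07% and 2.12% lower. After p53 RNAi it called 20, 33 and 45 members higher, where 0.411%, 1.85% and 8.96% of the tested transcripts were called higher and 0.692%, 2.06% and 8.35% lower. No member was called lower by limma in these 6 comparisons, with 44 to 62 at an unadjusted p under 0.05 in either direction, and nothing is read from these counts because the same contrasts chose the members. Same-numbered libraries of zfp1 RNAi and unc22 RNAi at day 13 deviated together, with correlations of 0.52, 0.18 and 0.58 for replicates 1, 4 and 5. Both replicate 5 libraries are among those that stood apart, and the correlation without them was not tested. With the replicate as a block in a fit on the zfp1 and unc22 groups of day 13 alone, the 20 became 3. Fitting these groups alone without the block already lowered the count, so the fall is not that of the block alone. The 20 of p53 RNAi at day 6 became 13 without replicate 3 and 11 without replicate 4 of unc22 RNAi.

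The zfp1 and p53 libraries were also set against each other. The rule asked for a day 6 rise in both, which bounds how they can differ on that day, so the number of members that differ there describes the choice as well. At day 6 limma called 2 members higher and none lower after zfp1 RNAi than after p53 RNAi, where 0.0469% of the tested transcripts were called higher and 0.0573% lower, and 9 had an unadjusted p under 0.05. limma-voom on the recovered reads called 1 higher and none lower. The 2 members were SMED30002500, higher by 1.10 ± 0.18 on the log2(RPKM + 1) scale (SE, adjusted p = 0.0029), and SMED30032800, higher by 0.68 ± 0.14 (adjusted p = 0.032). The first was higher in 4 of 4 zfp1 libraries than in any p53 library, and so was the second. When only the compared groups were fitted, neither was called (adjusted p = 0.92 for both). Over its alternatives the adjusted p ran between 3.8e-04 and 0.93 for SMED30002500 and between 0.0027 and 0.93 for SMED30032800. The call of SMED30032800 was lost in 10 of its 18 alternatives, among them those without replicate 1, 3 or 4 of p53 RNAi or replicate 2, 3 or 4 of zfp1 RNAi, each with 1 member left. The median difference over the members was 0.00, as against -0.05 over all tested transcripts, and 42 of 82 were negative.

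At day 9, 1 member was called lower and none higher, where 0.0156% of the tested transcripts were called lower and 0.104% higher, and 11 had an unadjusted p under 0.05. limma-voom also called 1 lower and none higher. It was the faded SMED30023953, at -0.90 ± 0.19 (adjusted p = 0.037), with all 4 zfp1 libraries below all p53 libraries. The call was lost, leaving 0, without replicate 1, 3 or 4 of p53 RNAi or replicate 1 or 2 of zfp1 RNAi, where the difference lay between -0.92 and -0.78 and the adjusted p between 0.070 and 0.26. It was also lost when only the compared groups were fitted (adjusted p = 0.22), and over all its alternatives the adjusted p ran between 0.0027 and 0.26. Over the members the median difference was 0.14, against 0.02 over all tested transcripts.

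At day 13 the members stood mostly lower after zfp1 RNAi than after p53 RNAi. The rule also bounded the D of both knockdowns on that day, so the counts over the members are descriptions here too. limma called 15 of 82 lower and 1 higher, or 18.3% and 1.22% of the members, where 5.59% and 4.7% of all tested transcripts were called lower and higher. The difference was negative in 62 of 82 members, with a median of -0.34, against -0.03 over all tested transcripts. The libraries did not overlap in 21 members with zfp1 RNAi lower and in 2 with it higher, where 10.4% of the tested transcripts did so in each direction. The 15 became 11 without replicate 5 of zfp1 RNAi, 16 without all 3 libraries that stood apart, and 9 when only the compared groups were fitted. In the settings that kept all 82 members and all libraries, 61 to 64 members were negative.

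The members called with the smallest adjusted p at day 13 were SMED30025252, at -1.90 ± 0.16 (adjusted p = 6.0e-10), SMED30017309, at -0.95 ± 0.16 (adjusted p = 1.4e-04), and SMED30005609, at -1.15 ± 0.22 (adjusted p = 9.9e-04). In each of them all 4 zfp1 libraries lay below all 4 p53 libraries. Of the members that had faded after zfp1 RNAi alone, SMED30011012 differed by -1.57 ± 0.31 (adjusted p = 0.0012), SMED30016942 by -0.76 ± 0.17 (adjusted p = 0.0046) and SMED30032800 by -0.66 ± 0.14 (adjusted p = 0.0025). The call of SMED30032800 was lost when only the compared groups were fitted (adjusted p = 0.078, over its alternatives 1.8e-04 to 0.078). The sorting into that class already sets a lower value after zfp1 RNAi, so the 4 of 6 of them called are no separate result. Among the 39 kept members 5 were called lower, among the 28 in between 6, and among the 8 faded in both none, with a median difference of -0.14 in the last. The 1 member called higher was SMED30016901, at 0.67 ± 0.14 (adjusted p = 0.0025), and it lost its call under quantile scaling, at 0.39 (adjusted p = 0.15, over its alternatives 0.0017 to 0.15). SMED30008464 was called at -0.64 ± 0.21 (adjusted p = 0.044) and lost its call in 13 of 18 alternatives, among them leaving out replicate 1 or 2 of p53 RNAi or replicate 2, 4 or 5 of zfp1 RNAi.

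The change from day 6 to day 13 was taken as the difference of the zfp1 against p53 contrast between these days. No control library enters the contrast, but the control entered the choice of members through D on both days, so the counts over the members are descriptions. limma called 7 of 82 members lower and none higher, where 1.02% of the tested transcripts were called lower and 0.677% higher, and 18 members had an unadjusted p under 0.05. limma-voom also called 7 lower and none higher. The value was negative in 61 of 82 members, with a median of -0.26, against 0.06 over all tested transcripts. It was -1.94 ± 0.22 for SMED30025252 (adjusted p = 2.2e-06), -1.34 ± 0.20 for SMED30032800 (adjusted p = 1.2e-04) and -1.31 ± 0.26 for SMED30002500 (adjusted p = 0.0046). These 3 reached it in different ways. SMED30025252 was alike in both knockdowns at day 6 and higher after p53 RNAi at day 13. SMED30002500 was higher after zfp1 RNAi at day 6 and faded to 1 range in both, and SMED30032800 changed order.

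SMED30017309 had -1.02 ± 0.22 in the same test (adjusted p = 0.010), SMED30029242, which the naming rule does not cover and which is named because it completes the 7, had -0.97 ± 0.20 (adjusted p = 0.0077), and SMED30005609 had -1.36 ± 0.32 (adjusted p = 0.018). SMED30005609 lost its call without replicate 2 of p53 RNAi at day 6 (-1.196, adjusted p = 0.053) or replicate 4 of p53 RNAi at day 13 (-1.203, adjusted p = 0.056), and its adjusted p ran between 0.0030 and 0.079 over its alternatives. SMED30011012, at -1.65 ± 0.44 (adjusted p = 0.046), lost its call in 17 of 27 alternatives. The values without 1 library ranged from -1.99 to -1.48, and leaving out any of 13 of the 16 libraries ended the call: replicates 1, 2 and 3 of zfp1 RNAi and 2, 3 and 4 of p53 RNAi at day 6, and replicates 1, 4 and 5 of zfp1 RNAi and all 4 of p53 RNAi at day 13. Without the 3 libraries that stood apart 13 members were called, and 2, SMED30025252 and SMED30032800, when only the compared groups were fitted.

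**Figure D5:**
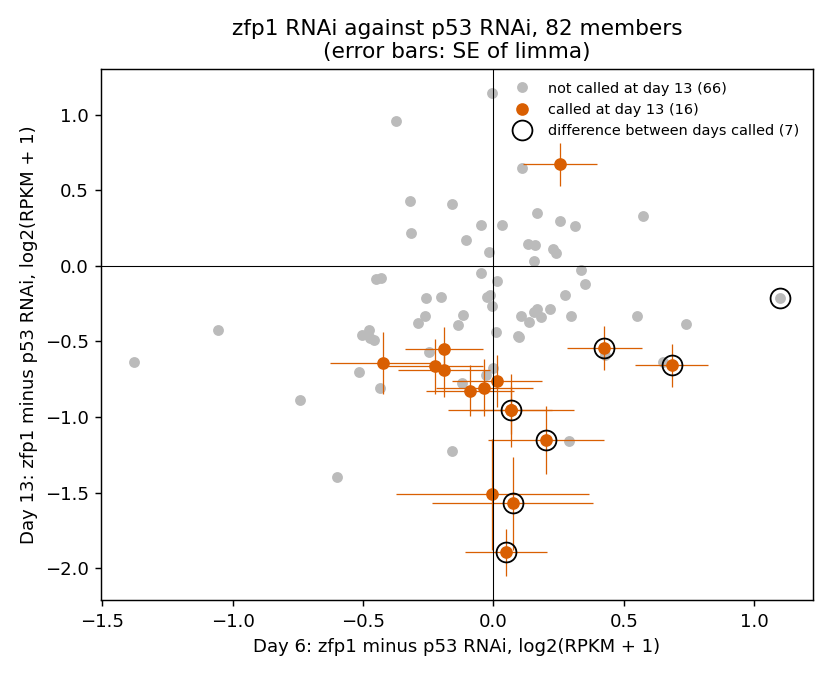
Difference of zfp1 RNAi minus p53 RNAi on the log2(RPKM + 1) scale at day 13 (vertical axis) against day 6 (horizontal axis) for the 82 members, with SE bars for the 16 called at day 13 and rings round the 7 whose difference changed between the days. At day 13, 62 of 82 lie below 0, and SMED30025252 lies lowest at -1.90.

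Length was no part of the rule, while a low control level was favoured by it, since a member could reach 3 RPKM through a knockdown group alone. The members were 264 to 5562 bases long with a median of 954 bases, and 25.6% were under 500 bases, as against medians of 1074.5 bases and 19.1% over all tested transcripts and 1309 bases and 10.9% over all transcripts that reached 3 RPKM. Their median control level at day 9 was 3.13 RPKM, against 3.66 RPKM over all tested transcripts and 11.4 RPKM over those that reached 3 RPKM. The members were thus shorter in the median than the transcripts from which they were drawn, and nothing is read from their lower control level. Their libraries also scattered somewhat more at day 9. On the log2(RPKM + 1) scale the median SD was 0.20 after zfp1 RNAi, 0.34 after p53 RNAi and 0.26 after unc22 RNAi. It was 0.17, 0.29 and 0.21 over the transcripts that reached 3 RPKM, and 0.19, 0.30 and 0.23 over all tested transcripts. The part of length, level and scatter in which transcripts became members was not tested.

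The bounds of the rule are soft. SMED30007779 and SMED30023267 lay just inside it, with a D for p53 RNAi at day 6 of 0.601 and 0.602, and SMED30014062, with 0.595 for zfp1 RNAi, and SMED30030850, with 0.594 for p53 RNAi, lay just outside. The smaller of the day 6 D values was under 0.7 in 33 of 82 members. Of 127 transcripts with the day 6 rise, 36 were left out because all 4 later D values were 1 or higher, with medians at day 13 of 1.43 for zfp1 RNAi and 1.83 for p53 RNAi, and 9 were left out for a day 13 D of -0.4 or lower, with medians of -0.24 and -0.41. The members are therefore the middle of a wider range of early rises, with the most lasting and the most reversed cases outside. Without replicate 1 of unc22 RNAi at day 6 the rule found 131 members, 77 of them shared. Without replicate 1 of zfp1 RNAi at day 6 it found 74, of which 65 were shared, and 17 of the 82 had a D for zfp1 RNAi below 0.6 there. With group means in place of medians the rule found 76, of which only 43 were shared.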

How the data were processed

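The deposited values are RPKM of 25462 transcripts in 35 libraries, made by the authors. The submitters' processing notes name Bowtie, CASAVA 1.8.2 and edgeR, and the genome or transcript set is not given in the sources used here. The low RPKM values stepped in whole reads. For each transcript the shortest length was taken at which all its values came out whole within 0.01 reads. Such a length was found for 100% of the transcripts, which gave read totals and transcript lengths. Wholeness chose the lengths and so is no check of them, and a length could come out too short. The deposited RPKM divide by a library size of 0.617 to 1.207 times that total. Groups follow the labels. Values were taken as log2(RPKM + 1), a scale that understates the change of weak transcripts, and a transcript was tested if 3 or more libraries had 1 RPKM or more of it (19206 transcripts, all 82 members among them). limma 3.58.1 in R 4.3.3 fitted a mean per group over all 9 groups with an intensity trend, and p-values were adjusted by Benjamini-Hochberg over all tested transcripts, with a threshold of 0.05. The fit was tested on simulated data. Counting error limits the weak members, some of which rest on few reads.

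The members, lists, classes and alternatives were chosen with earlier results of these data known. A rise was called kept at a day 13 D of 0.6 or higher and faded below 0.3. Named were, in each class, the 4 members with the largest mean day 6 D, the 4 with the highest group median, the 2 nearest the day 6 threshold on each side, and for each test of zfp1 against p53 RNAi the 3 called members with the smallest adjusted p. Alternatives were other pseudocounts (0.1 and 5 RPKM), filters, scalings, fits on the compared groups, limma-voom on recovered reads, and leaving out libraries; the block over all groups and the classes without replicate 5 of unc22 RNAi at day 13 were added after seeing the data. Whether replicate numbers pair libraries was checked by the correlation of same-numbered libraries' deviations from their group means. In zfp1 against unc22 RNAi at day 13 these were 0.52, 0.18 and 0.58 for replicates 1, 4 and 5, so the blocked count is given there. Both replicate 5 libraries are among those that stood apart, so these values alone do not show that a number pairs libraries. The labels do not say what a number shares. In the other comparisons at least 1 correlation was 0.1 or lower.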

Additional observations from a re-analysis of the deposited data

Results flagged for a closer look

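Among the named members and the library medians, 200 groups of 4 libraries were searched for a library far from the other 3, and 15 were found. Chance flags about 1 in 20 groups. SMED30019357 had 3 such libraries, at 6.235 RPKM in replicate 3 of zfp1 RNAi at day 9 (others 1.604 to 1.98 RPKM), 0.9739 RPKM in replicate 1 of zfp1 RNAi at day 13 (others 6.263 to 7.733 RPKM) and 12.29 RPKM in replicate 3 of unc22 RNAi at day 6 (others 0.3438 to 0.6492 RPKM). In the last library SMED30007813 also stood out, at 11.79 RPKM (others 1.152 to 1.787 RPKM), and SMED30000773 was at 1.351 RPKM (others 0.7851 to 0.8662 RPKM). SMED30021433 stood out in replicate 4 of p53 RNAi at day 13, at 65.74 RPKM (others 21.96 to 25.42 RPKM), and in replicate 1 of unc22 RNAi at day 6, at 66.54 RPKM (others 16.72 to 19.73 RPKM). SMED30023267 was at 9.7 RPKM in the same control library (others 7.782 to 8.041 RPKM). In replicate 1 of zfp1 RNAi at day 6, SMED30035336 was low at 9.161 RPKM (others 50.77 to 61.27 RPKM) and SMED30023953 was high at 22.27 RPKM (others 17.27 to 17.95 RPKM). That library was the highest of its group for 43 of the 82 members and the lowest for 22.

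SMED30005609 was low in replicate 2 of p53 RNAi at day 6, at 2.687 RPKM (others 4.675 to 4.801 RPKM), and SMED30023315 was low in replicate 3 of p53 RNAi at day 13, at 10.56 RPKM (others 15.41 to 16.49 RPKM). In unc22 RNAi at day 9, SMED30010467 was low in replicate 1, at 0.4242 RPKM (others 0.8836 to 0.9886 RPKM), SMED30025252 was high in replicate 4, at 1.695 RPKM (others 0.7965 to 0.889 RPKM), and the median member was also high in replicate 4, at 3.744 RPKM (others 3.203 to 3.224 RPKM).

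For 6 named members limma called the difference of zfp1 minus p53 RNAi unlike at days 13 and 6. The values were -1.944 for SMED30025252, -1.645 for SMED30011012, -1.355 for SMED30005609, -1.342 for SMED30032800, -1.314 for SMED30002500 and -1.02 for SMED30017309.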

How the results depend on the processing

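The number of members depended on the pseudocount, on the use of medians and on single libraries. A pseudocount of 0.1 RPKM gave 136 members (74 kept, 13 faded in both, 15 after zfp1 RNAi alone, 2 after p53 RNAi alone), 68 of them shared with the 82. Median D values were then 1.005 (zfp1, day 9), 0.985 (p53, day 6) and 1.234 (p53, day 13). A pseudocount of 5 RPKM gave 22 members (10 kept, 3 faded in both, 0 after zfp1 RNAi alone, 1 after p53 RNAi alone, 8 in between), 14 of them shared with the 82. Median D values over the 82 were then 0.503, 0.512 and 0.367 for zfp1 RNAi and 0.486, 0.445 and 0.604 for p53 RNAi. Group means gave 76 members, 43 of them shared with the 82, with 11 faded after zfp1 RNAi alone and 2 after p53 RNAi alone. Of the last kind there were 2 with median-ratio scaling, 5 with quantile scaling and 3 without the 3 libraries that stood apart. Without 1 library each in turn, there were 67 to 131 members, with 30 to 57 kept, 6 to 15 faded in both, 3 to 15 and 0 to 3 faded after zfp1 or p53 RNAi alone and 18 to 43 in between. The 131 came without replicate 1 of unc22 RNAi at day 6. The cause of these shifts was not tested.

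Of the members called, zfp1 against p53 RNAi at day 6 (2 higher) gave 1 with a pseudocount of 0.1 RPKM, with a mean of at least 5 RPKM or by limma-voom, 0 when only the compared groups were fitted, with or without a replicate block, and 1 to 2 without 1 library. At day 9 (1 lower) the compared groups alone gave 0 with or without the block, and leaving out 1 library gave 0 to 1; without the 3 libraries that stood apart 2 were lower and 2 higher, and with the block over all groups 1 was higher. At day 13 (15 lower, 1 higher) a mean of at least 5 RPKM, which tests 48 members, gave 7 lower, the compared groups alone 9, leaving out 1 library 11 to 20, and quantile scaling gave 0 higher. The change between the days (7 lower) gave 3 with that filter, 13 without the 3 libraries, 2 for the compared groups alone, 1 with the replicate block there, and 5 to 10 without 1 library. Against unc22 RNAi, zfp1 RNAi at day 6 (23) gave 37 without the 3 libraries, 4 for the compared groups alone and 1 with the block, and at day 13 (20) 7 and 3. p53 RNAi at day 6 (20) gave 13 with the stricter filter, 40 without the 3 libraries, 34 for the compared groups alone and 51 with the block, and at days 9 and 13 the stricter filter gave 20 and 27. Without 1 library, the counts were 17 to 30, 34 to 38 and 16 to 21 for zfp1 RNAi and 11 to 18, 29 to 31 and 37 to 45 for p53 RNAi. The median D lay in 0.774 to 0.886, 0.851 to 0.882 and 0.573 to 0.711 for zfp1 RNAi and 0.757 to 0.815, 0.744 to 0.829 and 0.94 to 1.035 for p53 RNAi. No call of zfp1 against p53 RNAi in a named member changed sign. The replicate block changed no other count of calls by over 1.5 times. The labels do not say what a number shares; 3 of 4 same-numbered pairs also deviated together in zfp1 against unc22 RNAi at day 9 (0.609, 0.281 and 0.342, with 0.032 in the other) and in p53 against unc22 RNAi at day 6 (0.35, 0.205 and 0.404, with -0.038 in the other).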
